A study of Xenopus tropicalis with 12 samples.

Results

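T3 against control was compared in TRα−/− intestine, where TRβ is the remaining thyroid hormone receptor (TR). The members were chosen by the sample labels: 3 TR ChIP-Seq libraries of TRα−/− tadpoles kept in T3 and 3 of TRα−/− tadpoles kept without T3, which are 6 of the 12 libraries of the series. The animals were Xenopus tropicalis tadpoles at stage 54, a stage before metamorphosis, treated with 10 nM T3 for 18 h or for 0 h (control), and wild-type and TRα−/− tadpoles had the same parents. All 6 libraries carry the TRα knockout, controls included, and the antibody is polyclonal and recognizes both TRα and TRβ. Each condition was 1 ChIP DNA sample from the intestines of the tadpoles, and that DNA was sequenced as 3 technical replicates. The spread between libraries is therefore the error of making and sequencing a library, and the p-values below do not cover differences between animals or between ChIPs. The gene disrupted in the knockout was not among the genes analysed here, so the genotype was not checked at its own locus.

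TR binds DNA at thyroid hormone response elements as a heterodimer with the retinoid X receptor, with or without hormone. Without T3 the receptor recruits corepressors, and with T3 it recruits coactivators to the same genes. In the tadpole intestine T3 drives the death of the larval epithelium and the formation of adult stem cells. TRα is present before metamorphosis, and the gene of TRβ, thrb, is itself a classical direct target of T3, as is thibz, which encodes a leucine zipper transcription factor.

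Peaks are places where more sequenced fragments overlap than in the surrounding DNA, and the pileup of a peak is the number of fragments at its highest point. The pileup was not scaled to sequencing depth, which is unknown. Coordinates are those of the lists, on the Xenbase v9.1 assembly. The 3 control libraries held 44196, 38961 and 42458 peaks, and the 3 T3 libraries held 17414, 26018 and 30916. Every T3 list was shorter than every control list, with a mean of 41872 ± 2666 (SD, n = 3) peaks without T3 and 24783 ± 6835 (SD, n = 3) with T3. The difference of −17089 peaks had p = 0.1 in an exact permutation test, two-sided, which is the smallest p that 3 libraries against 3 can give. When a −log10 q of 5 or more was required, the difference was −1393 peaks (p = 0.4, exact permutation test). Control library 1 stood apart in another way, with a pileup of 10 or more in 4.86% of its peaks against 12.5% to 17.3% in the other 5 libraries. The lowest background that fold enrichment implies is a rough measure of depth. In fragments per base it was 0.118, 0.260 and 0.252 in the control libraries and 0.149, 0.249 and 0.297 in the T3 libraries. These backgrounds overlapped between the groups, and their bearing on the number of peaks was not tested.

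Joining the peaks of the 6 libraries wherever they shared 1 bp or more gave 137922 regions. Of these, 83.7% held a peak of a single library, 13996 held peaks of 3 or more libraries, and 4553 held a peak of all 6. A region is called control-only when it held a peak of all 3 control libraries and of no T3 library, and T3-only in the opposite case. There were 329 control-only regions, 2.35% of the regions with peaks in 3 or more libraries, and 96 T3-only regions, 0.686% of them. With 17414 peaks of highest pileup kept in each library, the length of the shortest list, the order turned round to 140 control-only regions (1.28%) and 180 T3-only regions (1.65%). With 10000 peaks there were 108 and 143, with 5000 peaks 59 and 97, and with 2000 peaks 43 and 47. The larger number of control-only regions was thus seen in the full lists and not in lists of equal length.

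**Figure D1:**
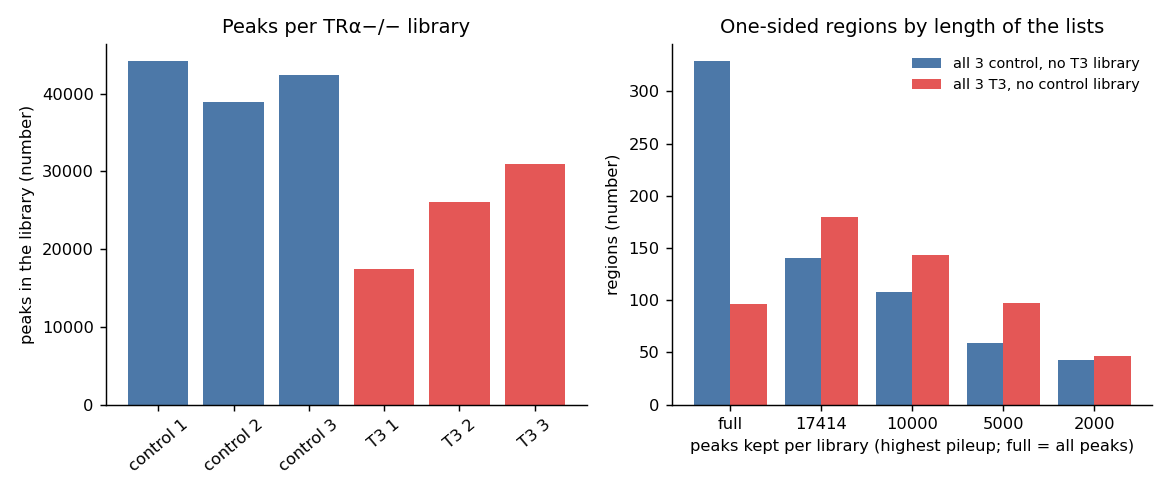
The left panel shows the number of peaks in each TRα−/− library, from 38961 to 44196 in control libraries (blue) and from 17414 to 30916 in T3 libraries (red). The right panel shows the number of one-sided regions, for the full lists and for lists cut to the 17414, 10000, 5000 or 2000 peaks of highest pileup; control-only regions are more numerous in the full lists alone.

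The counts also changed when a library was left out. This asks for fewer libraries to agree on that side alone, so the 2 counts no longer follow the same rule. Without T3 library 1, the shortest list, there were 471 control-only and 579 T3-only regions, so that the difference changed sign to 108. Without any one of the other libraries the control-only regions stayed the more numerous in the full lists, with control-only counts of 609 to 1390 and T3-only counts of 173 to 342. In lists of equal length the sign changed without control library 1 (a difference of −246), 2 (−64) or 3 (−40). Without T3 library 1, 2 or 3 the difference was 400, 247 or 142. It thus moved each time towards the side that lost a library, and the uneven rule cannot be told apart from reliance on single libraries. With all libraries the difference in equal lists was −31 when the other side had to lack a peak in its full lists, which left 99 control-only and 68 T3-only regions. Regions that were one-sided both in full and in equal lists are marked as such where they are named.

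The T3-only region of highest rank in its libraries lay upstream of thibz, on chromosome 3 from 129209320 to 129209697. Its pileups were 19, 17 and 33 in the T3 libraries, and no control library had a peak there. Its centre was at −4650 bp from the annotated start of thibz. In the wild-type libraries, which had no part in choosing it, the same region held a peak in every library, with pileups of 22, 33 and 52 without T3 and 38, 65 and 90 with T3. In TRα−/− intestine this region thus had called peaks with T3 alone, for which it was chosen, whereas in wild-type intestine it had them in both conditions. A missing peak does not show that binding was absent.

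The second was a narrow region of 183 bp inside eri3, which encodes an exoribonuclease family member, on chromosome 4 from 82777564 to 82777746. Its T3 pileups were 31, 21 and 29, and it held a peak in only 2 of the 6 wild-type libraries, with pileups of 11 without T3 and 8 with T3. The third lay between genes on chromosome 5, from 1699692 to 1700030, with T3 pileups of 16, 18 and 27 and wild-type pileups of 30 and 43 in control libraries 2 and 3 and of 45, 66 and 66 with T3. These 2 regions differed in whether wild-type intestine shared them.

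Within pdia4, which encodes a protein disulfide isomerase of the endoplasmic reticulum, the T3-only region on chromosome 6 from 82790523 to 82790764 had pileups of 14, 16 and 27. The wild-type pileups of this region were far larger, 188, 499 and 847 without T3 and 154, 399 and 341 with T3. Within inpp5a.1, an inositol polyphosphate phosphatase gene, the T3-only region on chromosome 7 from 12447957 to 12448216 had pileups of 15, 17 and 21. Its wild-type pileups were 71, 104 and 114 without T3 and 46, 78 and 76 with T3. At both of these genes the highest wild-type pileup came from a control library, unlike at thibz.

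The fifth T3-only region by rank lay at the start of LOC101731651 on chromosome 7, from 35483816 to 35484106, and had pileups of 14, 23 and 18. The regions that ranked after inpp5a.1 had lower pileups. Between slc13a4, a sulfate transporter gene, and fam180a the pileups were 7, 13 and 15. At LOC100494782 they were 8, 11 and 14. A pair of T3-only regions lay on chromosome 3 near tarsl2, a threonyl-tRNA synthetase gene, from 88123163 with pileups of 7, 13 and 16 and from 88129423 with pileups of 8, 11 and 11. The region near dspp had pileups of 7, 11 and 8. All 12 were one-sided in the equal-length lists as well, and each of these 6 held a peak in at least 3 of the 6 wild-type libraries.

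In 4 T3-only regions the wild-type libraries gave the same picture, and each of the 3 T3 libraries but no control library of wild type had a peak. Within spidr, which encodes a scaffold protein of DNA repair, the region on chromosome 6 from 98171122 to 98171428 had TRα−/− T3 pileups of 3, 11 and 12 and wild-type T3 pileups of 19, 36 and 49. The region 4192 bp from slc16a1, which encodes the monocarboxylate transporter MCT1, lay on chromosome 2 from 74306826 to 74307185, with pileups of 8, 9 and 12 in TRα−/− and 10, 19 and 33 in wild-type T3 libraries. Within ptn, the gene of the secreted growth factor pleiotrophin, the region on chromosome 3 from 1066615 to 1067087 had pileups of 3, 5 and 7 and of 9, 18 and 19. Near LOC108648863, on chromosome 9 from 688239 to 688500, they were 4, 5 and 8 and 7, 8 and 17. In both genotypes these 4 regions carried peaks with T3 alone. No T3-only region had the opposite pattern in wild type, and 3 of the 96 had no wild-type peak at all, 1 of them within thsd7b. Among the 13996 regions with peaks of 3 or more TRα−/− libraries, 84 had a peak in each wild-type T3 library and no wild-type control library. The opposite pattern was found at 16 of the 13996, and 174 had no wild-type peak.

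Some weaker T3-only regions lay at genes of known function, chosen here after their values were seen. They included myl3, which encodes a myosin light chain, with T3 pileups of 10, 7 and 12, and myocd, a coactivator of smooth muscle genes, with 7, 6 and 11. Of the 13 muscle, connective tissue and neural genes read below, 0 had a T3-only region, and muscle genes as a set were not tested. In total 60 genes, 0.304% of the 19768 genes named in the lists, had a T3-only region within the gene or 5 kb on either side.

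The control-only region of highest rank lay between genes on chromosome 5 from 68432681 to 68432857, 7807 bp from clvs2. It was 177 bp wide, and its pileups were 28, 40 and 53 in the control libraries. Only wild-type control library 3 had a peak there, with a pileup of 89. The second, on chromosome 5 from 30622253 to 30622648 and 112460 bp from etaa1, had pileups of 15, 27 and 23 and held a peak in 5 of the 6 wild-type libraries, with pileups of 30 and 31 without T3 and 27, 39 and 40 with T3. The third lay within LOC101731202 on chromosome 4, from 4546969 to 4547800, with pileups of 19, 17 and 17, and every wild-type library had a peak there. A further control-only region lay 2257 bp from the same gene, with pileups of 5, 11 and 11. Like the T3-only regions, the leading control-only regions were in part shared with wild-type intestine in both conditions.

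Further control-only regions among the first 12 lay between genes: near slc30a10 with pileups of 13, 14 and 16, near LOC101731717 with 4, 18 and 16, near vgll3 with 9, 14 and 5, near osbpl1a with 8, 14 and 12, near tnfaip8l2 with 6, 14 and 12, and near LOC108645794 with 6, 15 and 12. Within genes, the region of LOC108644482 had pileups of 4, 12 and 13 and that of LOC100496941 had 7, 7 and 13. One region of the 12, near LOC105946366 with pileups of 10, 12 and 4, was not one-sided in the equal-length lists, and the region within adamts9, which encodes a secreted metalloproteinase of the extracellular matrix, took its place with pileups of 8, 11 and 9. Control library 1, which had the lowest pileups in general, was the lowest of the 3 in most of these regions.

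In 2 control-only regions wild-type intestine matched, since each of its 3 control libraries and no T3 library had a peak. One lay within osbpl11, an oxysterol-binding protein gene, on chromosome 9 from 80327442 to 80328107, with pileups of 3, 5 and 5 in TRα−/− and of 3, 7 and 5 in wild-type control libraries. The other lay between genes on chromosome 5 from 140396863 to 140397308, with pileups of 5, 5 and 5 and of 4, 7 and 6. In 4 other control-only regions the wild-type pattern was the opposite, since peaks were seen with T3 alone, in each of the 3 libraries, and 14 of the 329 had no wild-type peak. Among the 13996 regions with peaks of 3 or more libraries, the first wild-type pattern was found at 16, the opposite one at 84 and no wild-type peak at 174. In total 188 genes, 0.951% of the genes named, had a control-only region within 5 kb.

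**Figure D2:**
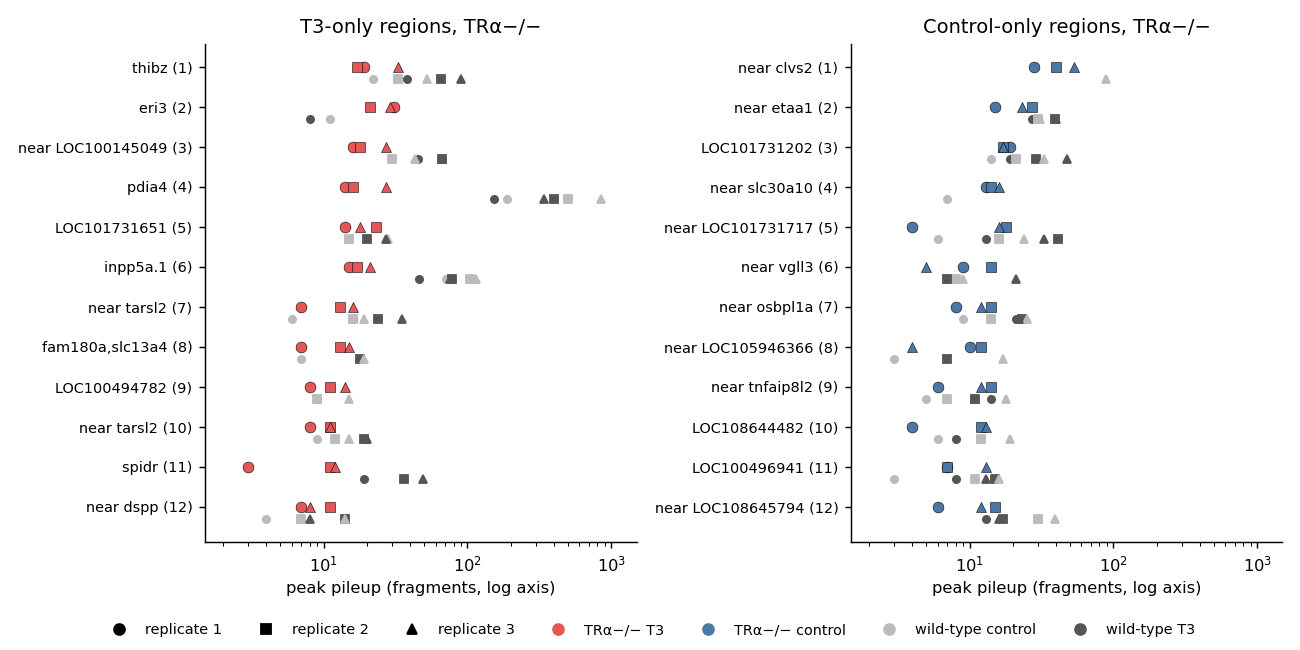
Pileups, in fragments on a log axis, of the 12 T3-only (left) and 12 control-only (right) regions of highest rank in their TRα−/− libraries, labelled with the gene within 5 kb or the nearest gene and with the rank. Coloured symbols are the 3 TRα−/− libraries that have a peak, and grey symbols below them are the wild-type libraries that have a peak in the region; the thibz region has TRα−/− T3 pileups of 17 to 33 and is bound in every wild-type library, and the pdia4 region reaches 847 in wild type.

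Peaks of the other side were looked for near the one-sided regions. A peak of a T3 library lay within 5 kb of 53.8% of the control-only regions and within 1 kb of 16.4%. A peak of a control library lay within 5 kb of 69.8% of the T3-only regions and within 1 kb of 28.1%. How often such a peak lies near any other position was not counted, so these shares have no base to be read against. The control lists were also longer than the T3 lists, so the shares of the control-only and T3-only regions cannot be compared directly. In zbtb47, which encodes a zinc finger protein, a control-only region (pileups of 7, 11 and 7) and a T3-only region lay 2944 bp apart, and there were 3 such opposite pairs within 10 kb of each other.

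The positions of control-only and T3-only regions were set beside those of the regions bound in all 6 libraries. Within annotated genes lay 38.6% of control-only, 32.3% of T3-only and 36.5% of shared regions. Farther than 5 kb from any gene named in the lists lay 46.8%, 45.8% and 46.9%. The extent of a gene ran over its features in the lists. A complete gene entry was there for 69.3% of the genes, so the extents and starts of the others may be incomplete. Within 1 kb of an annotated gene start lay 5.78% of control-only regions (19), 7.29% of T3-only regions (7) and 6.44% of shared regions. One-sided regions were narrower, with a median width of 642 bp when control-only and 491 bp when T3-only, against 940 bp for regions in all 6 libraries. The median of the highest pileup of a region was 7 in control-only, 8 in T3-only and 18 in shared regions. Both differences were in part set by the rule, since a shared region joins peaks of all 6 libraries and a one-sided region those of 3. Over the regions with peaks of 3 or more libraries the medians were 770 bp and 10. Among the 10 chromosomes, the T3-only shares lay farthest from the shared ones on chromosomes 7 and 8, picked after the values were seen. Chromosome 7 held 17 of the 96 T3-only regions (17.7%), 8.04% of the shared and 6.99% of the control-only regions. Chromosome 8 held 3 T3-only regions (3.13%), 10.8% of the shared and 10.3% of the control-only regions. On the other chromosomes the T3-only shares lay closer to the shared ones. No test of position was made, because regions within a library are not replicates.

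The wild-type libraries gave a readout that had no part in choosing the one-sided regions. Of the 96 T3-only regions, 40.6%, 63.5% and 77.1% held a peak in wild-type control libraries 1 to 3, and 63.5%, 80.2% and 79.2% in wild-type T3 libraries 1 to 3. Of the 329 control-only regions, 35.3%, 58.1% and 75.1% held a peak in the wild-type control libraries, and 51.7%, 71.1% and 71.4% in the wild-type T3 libraries. Of the regions with a peak in all 6 TRα−/− libraries, 88.8% to 99.7% did. At least 1 wild-type library had a peak at 96.9% of the T3-only and 95.7% of the control-only regions, and all 6 had one at 18 of the 96 and 44 of the 329. In each wild-type library the one-sided regions were found less often than the shared regions. Over the 13996 regions with peaks of 3 or more TRα−/− libraries the shares ran from 61.8% to 91.3%. Whether the lower shares go beyond the lower pileup of one-sided regions was not tested.

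The share of T3-only regions found in wild type was higher with T3 by 13.9 percentage points (60.4% ± 18.4 against 74.3% ± 9.34, SD, n = 3; p = 0.3, exact permutation test, two-sided). The same difference for control-only regions was 8.61 points (56.1% ± 19.98 against 64.7% ± 11.3, SD, n = 3; p = 0.7, exact permutation test). Neither difference exceeded the spread between libraries, since the groups overlapped. Without wild-type control library 1 the differences were 3.99 and −1.82 points. The mean share was higher in wild-type T3 libraries for both kinds. For control-only regions, though, wild-type control library 3 (75.1%) was above every wild-type T3 library. The kinds were also compared within each library, a comparison chosen after the data were seen. In wild-type control libraries the share of T3-only regions exceeded that of control-only regions by 5.37, 5.49 and 2.01 points, and in wild-type T3 libraries by 11.9, 9.08 and 7.74 points. Every T3 library was above every control library, by a mean difference of 5.28 points (p = 0.1, exact permutation test, the smallest p possible). With regions that were one-sided in equal-length lists the groups overlapped and the difference was 2.33 points (p = 0.6, exact permutation test).

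**Figure D3:**
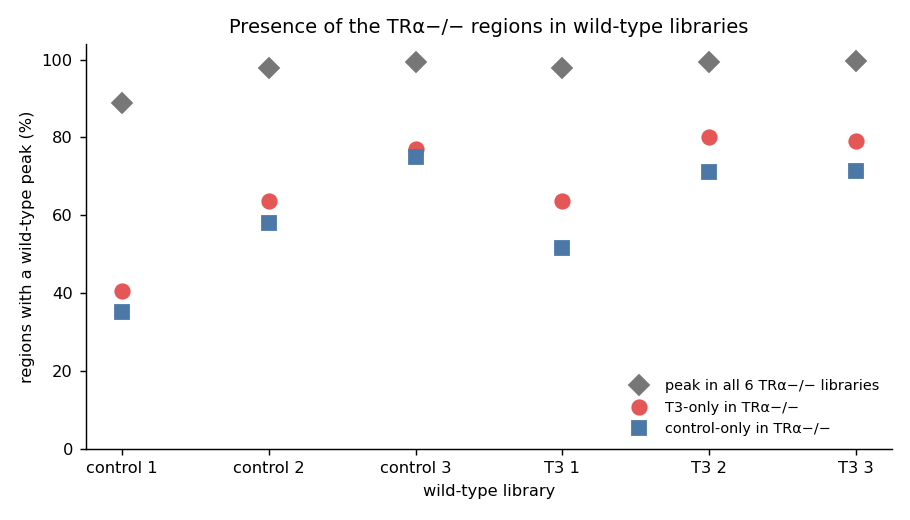
Percentage of regions that held a peak in each of the 6 wild-type libraries, for T3-only (red), control-only (blue) and shared (grey) regions of TRα−/− intestine. Shared regions range from 88.8% to 99.7%, and T3-only regions lie above control-only regions in every wild-type library, by 2.01 to 11.9 points.

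Genes of T3 action and of the pathways at work in the remodelling intestine were next read from 12 lists, of which 186 genes are named beside the peaks. A gene is called bound in a condition when a region with a peak of all 3 libraries of that condition lay within it or within 5 kb. Of the 186 genes, 13 were bound in both conditions, 9 in control intestine alone and 6 in T3-treated intestine alone. Over all 19768 genes these shares were 9.37%, 4.1% and 2.11%. Of the listed genes, 2 had a control-only region, notch1 and cdk6, and 1 had a T3-only region, thibz. The regions behind the other 13 genes bound in one condition alone held a peak of at least 1 library of the other condition.

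Among the direct T3-response genes, thrb gave a mixed picture. The region at its start, on chromosome 6 from 77217465 to 77217880, had pileups of 11 and 5 in control libraries 2 and 3 and of 16 in T3 library 3, with no peak in the other 3 libraries. The wild-type libraries had pileups of 11, 12 and 16 there without T3, and of 14 and 40 in T3 libraries 1 and 3. A region farther inside the gene, from 77303571 to 77304422, had pileups of 4, 7 and 10 in the control libraries and of 7 and 10 in T3 libraries 2 and 3. The call of thrb as bound without T3 alone therefore came from the missing peak in T3 library 1, the shortest list. The gene klf9 encodes a zinc finger transcription factor that responds early to T3. No region within klf9 or 5 kb on either side held peaks of more than 1 TRα−/− library. Regions farther from klf9 were not counted for it. A single peak with a pileup of 6, in T3 library 2, lay just upstream of the start of klf9. None of the 8 named genes of thyroid hormone metabolism and transport was bound in either condition. Over all genes 13.5% were bound without T3 and 11.5% with T3, and so short a list cannot be told apart from those shares.

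Of the 15 TR partners and coregulators, ncoa3 and med1 on chromosome 10 were bound in both conditions. Both encode coactivators of nuclear receptors. Another med1 entry, on chromosome 6, was bound in neither condition, and 3 control libraries and 0 T3 libraries had a peak at it. At med1 on chromosome 10 the pileups were 120, 137 and 139 without T3 and 103, 129 and 153 with T3. At ncoa3 they were 13, 18 and 17 without T3 and 11, 22 and 13 with T3. The gene of the arginine methyltransferase carm1, also a coactivator, was bound without T3 alone. Its region from 128023151 to 128023600 on chromosome 3 had pileups of 20, 23 and 22 without T3 and of 9 and 16 in T3 libraries 1 and 3. A further region, from 128012736 to 128013208, had pileups of 4, 8 and 5 without T3 and of 9 in T3 library 3. The groups overlapped at med1 and ncoa3, and at carm1 the T3 values that were present were lower in the first region and higher in the second.

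Of the 11 hedgehog pathway genes, ihh, which encodes Indian hedgehog, a ligand of the pathway, was bound without T3 alone, with pileups of 9, 8 and 8 against 13 and 11 in T3 libraries 2 and 3. The region of sufu, an inhibitor of the pathway, was bound with T3 alone, on chromosome 7 from 21062587 to 21063000. Its pileups were 5 and 8 in control libraries 1 and 2 and 26, 40 and 47 in the T3 libraries. Every T3 value at sufu was above every control value, whereas at ihh the T3 values that were present were the higher ones.

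Of the 26 Wnt and stem cell genes, rspo2, wnt6 and fzd2 were bound in both conditions. The R-spondin receptor gene lgr4 (pileups of 5, 6 and 8 without T3, and of 7 and 7 in T3 libraries 2 and 3) and the Wnt inhibitor gene dkk1 (4, 11 and 12 without T3, and 5 and 8 in T3 libraries 1 and 3) were bound without T3 alone. At these genes the call turned on 1 T3 library without a peak.

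Of the 13 Notch pathway genes, notch1, the receptor, had a control-only region on chromosome 2 from 81916288 to 81917853, with pileups of 10, 9 and 8. A region from 81917984 to 81919266, directly beside it, held a peak of all 6 libraries, with pileups of 5, 10 and 8 without T3 and 6, 6 and 10 with T3. Notch1 was thus bound in both conditions. Of the genes of the coactivators that act with the Notch receptor, maml1 was bound in both conditions and maml2 with T3 alone, with pileups of 6 and 5 in control libraries 2 and 3 and of 5, 6 and 4 in the T3 libraries. At maml1 the region on chromosome 3 from 3444116 to 3444776 had pileups of 3, 5 and 11 without T3 and 14, 23 and 13 with T3. It was higher with T3 (log2 difference 1.42 ± 0.35 SE, limma adjusted p = 0.0269). Over the 12 lists, 18 regions of 13 genes were tested in this way, with 1 higher and 0 lower. The maml1 call was not followed under other processing. In wild type the log2 difference there was −0.10 ± 0.31 (SE, limma adjusted p = 0.99).

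Of the 14 matrix metalloproteinase and inhibitor genes, mmp24 and timp3 were bound with T3 alone and none without T3 alone. At mmp24 the pileups were 10 and 9 in control libraries 2 and 3 and 7, 6 and 6 with T3, and at timp3 they were 2 and 6 in control libraries 1 and 2 and 8, 6 and 11 with T3. The control values that were present were not lower than the T3 values at mmp24.

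Of the 34 cell cycle and condensin genes, cdk1, which encodes the kinase that drives entry into mitosis, had a region upstream with a peak in all 6 libraries. Its pileups were 8, 7 and 12 without T3 and 6, 8 and 10 with T3, and the log2 difference of −0.12 ± 0.34 (SE, limma adjusted p = 0.953) was within the spread between libraries. A region downstream of cdk1 had a peak in all 3 T3 libraries, with pileups of 5, 3 and 9, and in control library 2, with 7. The control-only region of cdk6, a kinase of G1 phase, was weak, with pileups of 3, 3 and 4 and wild-type pileups of 6 to 9 in 5 libraries. The cyclin genes ccnd2 (3, 7 and 10 without T3, and 6 and 6 in T3 libraries 2 and 3) and ccna1 (4 and 4 in control libraries 2 and 3, and 4, 4 and 5 with T3) were bound in one condition alone by the lack of a single peak each. The genes cdc27 and bub1b were bound in both conditions.

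Of the 14 apoptosis genes, the death receptor genes fas and tnfrsf10b were bound, fas in both conditions and tnfrsf10b without T3 alone (pileups of 4, 4 and 4, and 5 in T3 library 1). Of the 17 BMP and TGF-β genes, tgfb2 and smad2 were bound in both conditions. Of the 15 intestinal epithelium genes 1, fabp1, was bound, and none of the 13 muscle, connective tissue and neural genes. These lists too are short beside the shares over all genes, 13.5% bound without T3 and 11.5% with T3. Peak lists do not measure expression, so these lists do not identify the cells of the sample.

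The pileup itself was compared in the 4553 regions with a peak in all 6 libraries, as log2(pileup + 1) after cyclic loess normalization, with limma. With T3, 29 regions were higher (0.637% of those tested) and 27 were lower (0.593%) at an adjusted p under 0.05, and 498 had an unadjusted p under 0.05. The median difference over all regions was 0.00035. The normalised values of the groups did not overlap in 376 regions higher with T3 (8.26%) and 368 lower (8.08%), so a lack of overlap was far more frequent than a call. Of the 29 higher regions, 11 lay in a gene, 1 within 5 kb of a gene and 17 farther away, and of the 27 lower regions these numbers were 6, 8 and 13. The split of the calls depended on the scaling, with 54 higher and 15 lower after median centring and 20 higher and 9 lower with fold enrichment in place of pileup. It also depended on single libraries. The number of higher regions was 15 without control library 3 and 19, 13 and 17 without T3 libraries 1, 2 and 3, and the number of lower regions was 10 and 13 without control libraries 2 and 3 and 7 and 12 without T3 libraries 2 and 3.

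The region with the lowest p lay within col19a1, which encodes a collagen chain, on chromosome 5 from 90893585 to 90894230. Its pileups were 57, 91 and 109 without T3 and 253, 235 and 307 with T3, a log2 difference of 1.52 ± 0.14 (SE, limma adjusted p = 3.19e-10). The groups did not overlap. The difference was smaller, 0.54, with fold enrichment, which divides by the local background (limma adjusted p = 0.000286). Peaks were called without a control library, so that background comes from the same library as the peak. Fold enrichment is therefore no independent correction, and how far this lowers the differences here and below was not tested.

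The second covered the 18S ribosomal RNA gene rn18s and LOC100127873 on chromosome 7, from 88495266 to 88496851, with pileups of 19, 26 and 27 without T3 and 73, 90 and 125 with T3 (log2 difference 1.88 ± 0.19 SE, limma adjusted p = 3.42e-09). Ribosomal RNA genes are repeated in the genome, and reads of different copies cannot be told apart in such a list. With fold enrichment, which divides by the local background, the difference was 0.27 (limma adjusted p = 0.897), so this call was lost.

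The third, on chromosome 4 from 39368872 to 39369288 and 6527 bp from fut3, a fucosyltransferase gene, had pileups of 6, 20 and 15 without T3 and 47, 72 and 70 with T3, which was the largest log2 difference of the called regions (2.18 ± 0.24 SE, limma adjusted p = 2.16e-08). Within LOC101732008 on chromosome 6 the pileups were 24, 28 and 25 against 69, 79 and 95 (1.56 ± 0.20). In these regions as well every T3 value lay above every control value. The differences with fold enrichment were smaller, 1.31 near fut3 and 0.82 within LOC101732008, and both calls stayed.

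Other regions of the 10 with the lowest p lay between genes. Near triqk on chromosome 6 the pileups were 10, 25 and 21 without T3 and 41, 52 and 70 with T3, and near haao on chromosome 5 they were 7, 11 and 13 and 32, 40 and 35. Between genes on chromosome 5, from 6443945 to 6444494, they were 7, 22 and 8 and 41, 35 and 48. On chromosome 9 from 5874469 they were 14, 30 and 35 and 43, 71 and 103, on chromosome 8 from 51871767 they were 8, 15 and 9 and 25, 37 and 47, and near ptchd4 they were 2, 12 and 20 and 22, 35 and 34. The call near ptchd4 was lost without T3 library 2 (limma adjusted p = 0.0591), and that on chromosome 8 with fold enrichment (limma adjusted p = 0.138). Among the other higher regions were single ones within dcc, a netrin receptor gene, rgs12, nlk, a kinase of the Wnt pathway, and pten, the phosphatase that opposes PI3-kinase signalling; pten was the only called region whose normalised values overlapped between the groups (pileups of 2, 3 and 14 against 13, 11 and 20).

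Among the lower regions the one with the lowest p lay between genes on chromosome 2, from 166285252 to 166285907 and 66152 bp from fam181b. Its pileups were 131, 240 and 233 without T3 and 83, 119 and 181 with T3 (log2 difference −0.82 ± 0.13 SE, limma adjusted p = 8.57e-05). These unscaled pileups overlapped, with T3 library 3 above control library 1, and the normalised values did not. Near stac on chromosome 6 the pileups were 22, 60 and 62 against 14, 15 and 21 (−1.42 ± 0.24), and within mtus2, which encodes a microtubule-associated protein, they were 33, 47 and 53 against 12, 18 and 29 (−1.25 ± 0.23). Within gpr20, a G protein-coupled receptor gene, they were 8, 14 and 19 against 3, 3 and 5, the largest fall of the called regions, by 1.60 ± 0.33 on the log2 scale (limma adjusted p = 0.00434).

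Further lower regions lay near LOC101733857 (73, 133 and 126 against 48, 60 and 85), near dok5 (61, 89 and 109 against 31, 49 and 63), near MGC147242 (24, 63 and 46 against 19, 14 and 21) and near slc25a36, a mitochondrial carrier gene (36, 67 and 77 against 26, 28 and 37). The last 2 of the 10 lay at cenpj, a centriole protein gene, and rnf17 (25, 51 and 43 against 16, 18 and 22) and near hspa12b and c20orf27 (71, 117 and 107 against 43, 56 and 91). The unscaled pileups of the groups overlapped near LOC101733857, dok5, slc25a36 and hspa12b, and the normalised values overlapped at none of the 10. Without T3 library 2, 5 of these 10 lower regions lost their call, those at MGC147242, gpr20, slc25a36, cenpj and hspa12b, with limma adjusted p between 0.0638 and 0.0944. With fold enrichment, 5 lost it, those near fam181b, stac, LOC101733857, cenpj and hspa12b.

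**Figure D4:**
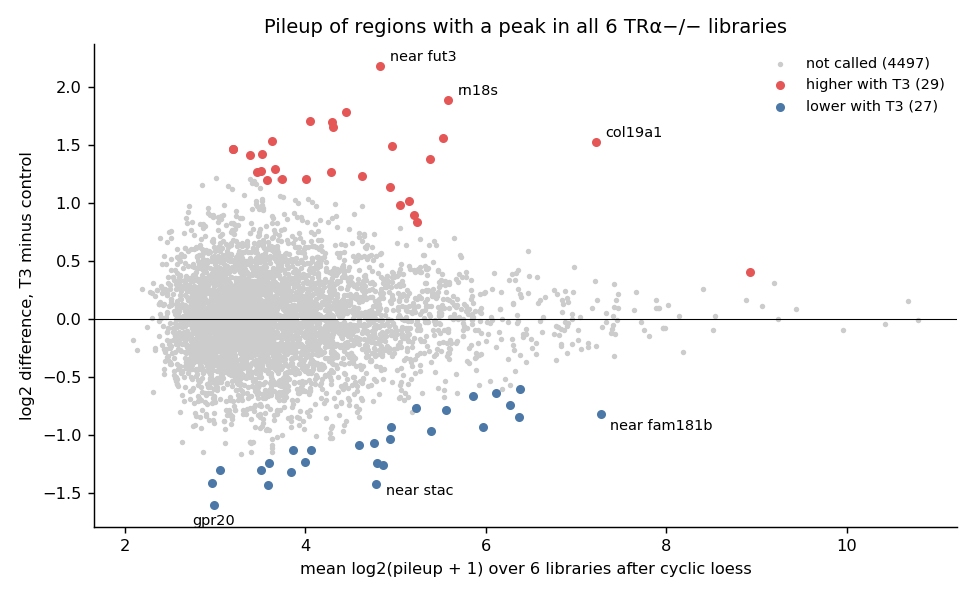
Difference in log2(pileup + 1), T3 minus control, against the mean over the 6 TRα−/− libraries, for the 4553 regions bound in every library. Red points are the 29 regions higher with T3 and blue points the 27 lower at a limma adjusted p under 0.05; the col19a1 region stands out with a difference of 1.52 at a high mean, and the fut3 region has the largest difference, 2.18.

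The same regions were followed in wild-type libraries. A peak in all 12 libraries was found at 28 of the 29 higher and 25 of the 27 lower regions. For the higher regions the median log2 difference was 1.29 in TRα−/− and 0.04 in wild type, with the direction shared at 17 of 28. For the lower regions it was −1.07 and −0.11, with the direction shared at 15 of 25. The regions were picked by their TRα−/− differences, which makes the TRα−/− medians large by selection, unlike those of wild type. How often the direction was shared over all regions was not counted, so these counts have no base to be read against. Over the 3909 regions with a peak in all 12 libraries, the T3 effect differed between genotypes at 8 (0.205%) by the interaction term in limma at an adjusted p under 0.05, and 301 had an unadjusted p under 0.05. In all 8 the T3 effect was above that in wild type. The T3 effect in wild-type libraries alone was past the threshold at 4 regions, all lower, 0 higher, with 189 at an unadjusted p under 0.05. The wild-type values had no part in choosing the regions called in TRα−/−, but the TRα−/− values enter the interaction, so the interaction is no independent test for them.

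**Figure D5:**
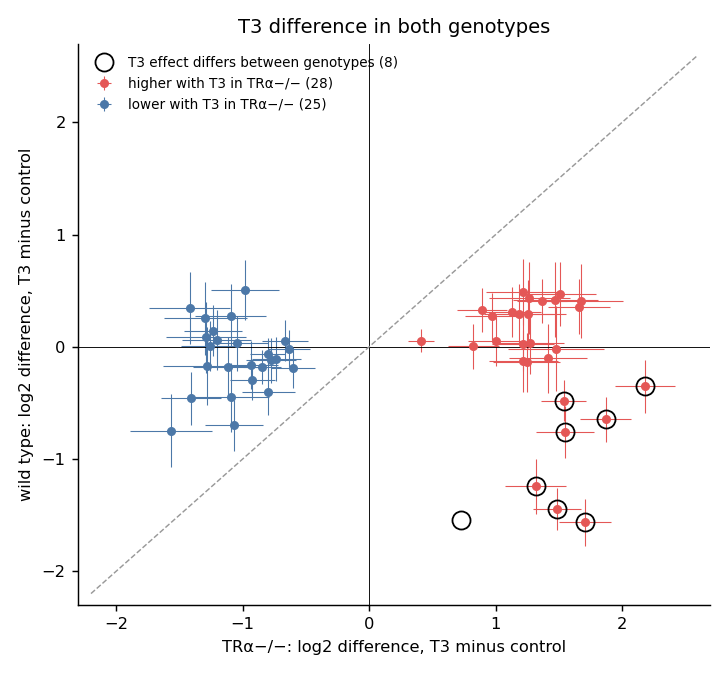
Log2 difference in pileup, T3 minus control, in TRα−/− (horizontal) and wild-type (vertical) intestine, with standard errors from limma, for the called regions with a peak in all 12 libraries, 28 higher (red) and 25 lower (blue) in TRα−/−, and for the 8 regions whose T3 effect differed between genotypes (circles). One circle, at pcnxl4, holds no point because that region was not called in TRα−/−. Equal effects would lie on the dashed line. The 8 circles all lie below it, with wild-type differences from −1.56 to −0.35 in normalised values.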

How the data were processed

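TR ChIP-Seq peak lists of 6 TRα−/− and 6 wild-type libraries were used, grouped by the sample titles. The authors aligned reads with Bowtie2 2.3.4.1 to the Xenbase assembly, removed redundant reads, and called peaks with MACS2 2.1.1.20160309 on each library without a control library. The deposited values of each peak are its pileup signal, fold enrichment as a ratio, −log10 p-value and −log10 q-value (q-value under 0.05). A peak can take several lines, one for each annotated feature, and these were reduced to 1. Pileups cannot be scaled to reads, since depth is unknown, and the number of libraries limits the precision. At a missing peak, low depth and absent binding cannot be told apart.

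Peaks were joined at an overlap of 1 bp, and genes were taken with 5 kb on either side. Exact permutation tests (two-sided) compared libraries. limma 3.58.1 in R 4.3.3 compared log2(pileup + 1) after cyclic loess, with Benjamini-Hochberg adjustment over all regions tested and moderated standard errors. Both steps were also run on simulated data with independent values and isolated planted peaks, which does not measure their error in these data. Python 3.11.15 was used.

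The members, the gene lists and the tests were chosen with earlier results of these data known. Named were the 12 regions a side with the best median pileup rank, the first 12 a side that were one-sided in full and equal-length lists, the 10 limma regions with the lowest p in each direction, every list gene with a one-sided region, and thrb, thibz, klf9 and cdk1. Other genes were named after their values were seen. The extent of a gene runs over its features in the lists, with a complete gene entry for 69.3% of them. The reference gene table served for names alone. Alternatives were a stricter q-value, other overlap, ranking, normalization and list length, each library left out, and the replicate number as a block. No sequence of the regions was read, as no genome of the files' assembly was used here.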

Additional observations from a re-analysis of the deposited data

Results flagged for a closer look

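In 8 regions the T3 effect on pileup differed between TRα−/− and wild-type intestine by the interaction term of limma. All are differences of the T3 effect, TRα−/− minus wild type, on the log2 scale. The difference was 3.27 ± 0.29 (SE) on chromosome 5 from 6443945 (limma adjusted p = 2.99e-09), where the wild-type pileups were 623, 1778 and 2662 without T3 and 500, 1198 and 1067 with T3, against 7 to 48 in TRα−/−. It was 2.93 ± 0.27 near triqk, with wild-type pileups of 133, 224 and 284 and then 99, 130 and 152. At hoxb7, a homeobox gene, it was 2.56 ± 0.34, with 243, 362 and 443 and then 187, 284 and 251 in wild type, against 5, 7 and 7 and then 22, 13 and 20 in TRα−/−. At pcnxl4 it was 2.27 ± 0.35, with 363, 960 and 1319 and then 269, 612 and 553 in wild type, against 3, 9 and 21 and then 8, 18 and 26 in TRα−/−, where the T3 effect alone was not past the threshold (limma adjusted p = 0.344).

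At the other 4 regions the wild-type pileups were of the size seen in TRα−/− intestine. The difference was 2.53 ± 0.33 near fut3 (wild-type pileups of 14, 34 and 41, then 26, 40 and 43), 2.52 ± 0.28 at rn18s (23, 68 and 71, then 40, 50 and 67), 2.31 ± 0.32 at LOC101732008 (35, 64 and 67, then 44, 62 and 52) and 2.02 ± 0.26 at col19a1 (105, 140 and 213, then 132, 247 and 200). In these 4 the wild-type T3 effect was not past the threshold, with limma adjusted p between 0.814 and 0.955. The wild-type effects near fut3 (−0.35) and at col19a1 (−0.48) are negative in normalised values. Their unscaled wild-type pileups overlapped between the groups, and near fut3 each T3 library was above the control library of the same number.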

How the results depend on the processing

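Under a −log10 q of at least 5 there were 99 control-only regions, 53 genes with one, and a difference of −30 regions and −1393 peaks. With 50% overlap of both peaks the difference was −142. With a peak in at least 2 of 3 libraries there were 3088 control-only and 1037 T3-only regions (difference −2051) at 1645 and 581 genes, and in equal lists 1063 and 1246 (difference 183). Within gene extents alone 123 and 31 genes had a control-only or a T3-only region. In equal lists, 5000 peaks gave 59 and 97 regions, 2000 peaks 43 and 47 (difference 4), and the demand that the other side lack a peak in its full lists 68 T3-only regions and −31. The limma counts were 54 higher and 15 lower after median centring and 9 lower with fold enrichment.

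For one-sided regions, leaving out a library relaxed the rule on its side alone. Leaving out each library in turn gave 471 to 1390 control-only and 173 to 579 T3-only regions (difference −1217 to 108), 273 to 803 and 100 to 342 genes, and in equal lists 224 to 536 and 290 to 624 (difference −246 to 400). It gave 13 to 37 higher and 7 to 26 lower regions, −20156 to −13405 peaks, and wild-type differences of 3.99 to 22.2 points for T3-only, −1.82 to 18.1 for control-only regions and 4.12 to 6.19 for the excess.

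The replicate numbers name libraries of 1 ChIP DNA sample. Same-numbered libraries correlated by 0.0919, 0.0441 and 0.00587 in their deviations after normalization, and not every library correlated best with its own number. These values cannot show differences that normalization removed. Replicate 1 had the lowest background of its group in TRα−/− control (0.118), TRα−/− T3 (0.149), wild-type control (0.0898) and wild-type T3 libraries (0.251 fragments per base). With the replicate block limma called 55 higher and 51 lower regions, the difference of −17089 peaks had p = 0.25, and the wild-type differences of 13.9, 8.61 and 5.28 points had p = 0.25, 0.5 and 0.25 in exact sign-flip permutation tests, where 0.25 is the smallest p possible. Of the 20 regions named from limma, 2 of 10 lower and 7 of 10 higher ones stayed past the threshold under every alternative in which they were followed, which excludes 50% overlap, where regions have other boundaries, and, for 1 lower region, the minimum mean pileup. The unknown depth limits every statement on a missing peak.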

Other observations

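A set of 10 regions, chosen after the values were seen, had a wild-type median pileup of at least 100 and at least 5 times the highest TRα−/− pileup. Their wild-type medians ran from 167.5 to 1132.5, and their TRα−/− pileups from 3 to 48. The mean wild-type pileup with T3 was lower than without T3 in all 10, at 0.49 to 0.689 of it, whereas over the 205 regions with a wild-type median of at least 100 the median of this ratio was 1.54. These ratios are of pileups not scaled to depth. The lowest implied background was 0.0898, 0.279 and 0.426 fragments per base in wild-type control libraries and 0.251, 0.523 and 0.664 in wild-type T3 libraries. How far depth accounts for the ratios was not tested. Within TRα−/− intestine the highest T3 pileup exceeded the highest control pileup in 9 of the 10, against 142 of those 205. A peak in all 3 T3 libraries was found at 6 of the 10 and in all 3 control libraries at 3, against 198 and 195 of the 205. The lower numbers among the 10 were in part set by their choice, which asked for low TRα−/− pileups. They include the T3-only region of pdia4, the regions at hoxb7 and pcnxl4 and that on chromosome 5 from 6443945 described above, and regions within usp15 (wild-type pileups of 330, 639 and 760, then 213, 442 and 335; TRα−/− T3 pileups of 13, 23 and 31 and a control pileup of 9 in library 1), LOC101733691 and lrfn2. The exception lay on chromosome 1 from 71652869 to 71653056, with a single TRα−/− pileup of 17, in control library 2, and wild-type pileups of 580 to 1802.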
